A study of Homo sapiens with 4 samples.

Results

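The genes that encode histone-modifying enzymes were examined for H3K4bhb, a histone mark in which lysine 4 of H3 carries a beta-hydroxybutyryl group, in HK-2 cells. Members were the protein-coding genes of chromosomes 1 to 22 and X in the RefSeq table of GRCh38 whose symbols begin with KMT, KDM, SETD, SETMAR, EZH, NSD, SUV39H, EHMT, DOT1L, SMYD, PRDM, PRMT, HDAC, KAT, EP300 or CREBBP, or consist of SIRT and a number. These were 114 of 19974 genes. Members were grouped into roles by gene family, and the activity of each protein on histones was not checked. By role, 53 were writers (35 lysine methyltransferases, 8 arginine methyltransferases and 10 acyltransferases), 37 were erasers (19 demethylases and 18 deacylases) and 15 belonged to the PRDM family. The other 9 matched by letters alone: 6 genes of the katanin family or bearing its name, the sterol dehydrogenase NSDHL, the Polycomb inhibitor EZHIP and the read-through locus SETDB2-PHF11. HK-2 is an established line of human renal tubular epithelium. Chromatin immunoprecipitation and sequencing (ChIP-seq) was done on cells given hydrogen peroxide (H2O2), an oxidant, and on cells given H2O2 after pretreatment with BHBNa, the sodium salt of beta-hydroxybutyrate. The labels state no dose or time, and neither group was free of H2O2. Each treatment was represented by a single immunoprecipitated (IP) library and a single control, called IgG in the titles and input in the library names. The 2 peak lists, named here the H2O2 list (H2O2 alone) and the BHBNa list (BHBNa, then H2O2), therefore have no replicate check. The tables with folds and p were filed under the control samples, but their peak names set IP against input and the peak tables filed under the IP samples held the same peaks, so each list was read as the peaks of its IP library.

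Writers attach methyl or acyl groups to histone tails and erasers remove them. Beta-hydroxybutyrate, a ketone body, can itself be attached to histone lysines: the acetyltransferase p300, encoded by EP300, is known to write the mark, and the deacylases HDAC1, HDAC2, HDAC3 and SIRT3 are known to remove it. On lysine 4 of H3 the acyl group occupies the residue that enzymes of the KMT2 and SETD1 families methylate, a modification known for marking active promoters and enhancers, and that KDM1 and KDM5 enzymes demethylate. Their peaks were asked for here, writers and erasers apart, beside other genes of like length.

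There were 6251 peaks after H2O2 alone and 11510 after BHBNa and H2O2. IP fragments per summit were recovered from the deposited fold and p. No H2O2 peak had fewer than 3 fragments, whereas 5970 of the BHBNa peaks had 2. The genome-wide control background, which scales with IP depth, was 0.274 and 0.102 fragments in that order, so that 2 fragments sufficed for a peak only in the latter. Folds and counts are therefore values within a list, and depth was not separated from treatment. Peaks of 1 histone mark do not measure expression. Of 10 tubule and epithelial markers, some of which were chosen with their peaks in these lists known, 4 and 5 had a peak (1.74 and 3.13 expected from other genes of like length), and with at least 3 fragments 4 and 3 did (1.74 and 1.78 expected), which does not check the cell type.

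A gene was counted when a peak summit lay inside it or within 3 kb of it. In the H2O2 list 12 of 114 members had such a peak, 10.5% (95% Wilson interval 6.12 to 17.5, counting error only), against 8.34% of all protein-coding genes. In the BHBNa list 26 of 114 did, 22.8% (16.1 to 31.3), against 16.4% of all genes. Members are longer than most genes, with a median of 49.4 kb against 24.2 kb, and long genes hold more peaks. When each member was given the share of genes with a peak among the other genes in its length class (20 classes of equal gene number), the expected numbers were 13.6 (H2O2) and 26.5 (BHBNa). The observed 12 and 26 were both close to these values. Peaks numbered 16 and 36, or 1.46 and 3.28 per Mb of member span, where all protein-coding genes together held 1.81 and 3.73 per Mb. Of the 114 members, 82 had no peak in either list, 6 had one for H2O2 only, 20 for BHBNa only and 6 for both. Over all 19974 protein-coding genes the same split was 15938, 764, 2370 and 902. With at least 3 fragments required, 12 members remained for H2O2 and 9 for BHBNa (13.6 and 14.3 expected). This limit could lower only the BHBNa count, since every H2O2 peak met it. Of all protein-coding genes, 1666 (H2O2) and 1765 (BHBNa) then had a peak.

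**Figure D1:**
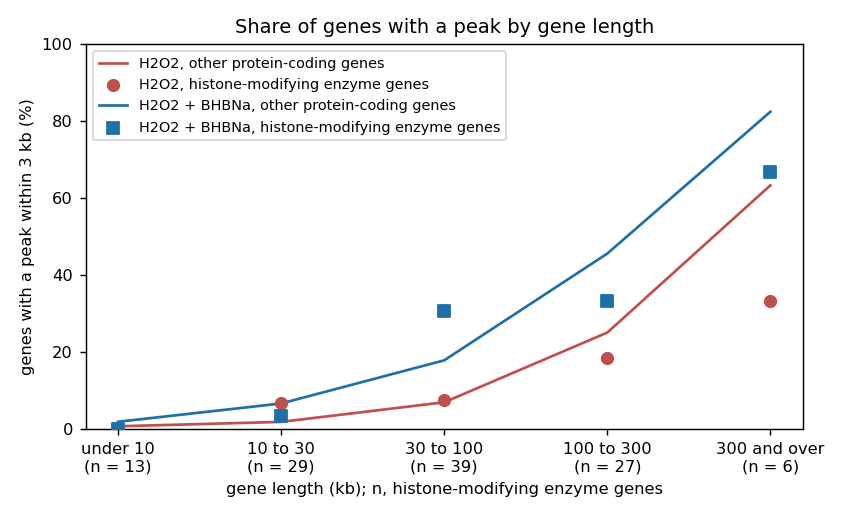
Share of genes with a peak summit within 3 kb (vertical axis, %) by class of gene length in kb (horizontal axis), with lines for other protein-coding genes and points for histone-modifying enzyme genes, 1 colour per list. The share rises with length in both lists, to 63.3% and 82.4% of other genes of 300 kb and over, and the members lie below the lines in the classes of 100 to 300 kb and of 300 kb and over.

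Long members differed among themselves. Of the 6 members longer than 300 kb, HDAC9 (916 kb) and SMYD3 (758 kb) had peaks in both lists, and PRDM16 (369 kb) and KMT2C (301 kb) in the BHBNa list alone. The histone demethylase gene KDM4C (455 kb) and the class IIa deacetylase gene HDAC4 (353 kb) had 0 peaks in both. Among members of 30 to 100 kb, 12 of 39 (30.8%) had a peak in the BHBNa list, where other genes of that length gave 17.9%. Of these 12, only EP300, KDM5C and PRMT7 had a peak of at least 3 fragments. In the H2O2 list the same class had 3 of 39 (7.69%), against 7.01%. Members under 10 kb, 13 in all, had 0 peaks in either list, where 0.779% and 1.95% of other genes of that length had one.

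In the H2O2 list 5 of 53 writers (9.43%, 4.1 to 20.3) and 3 of 37 erasers (8.11%, 2.8 to 21.3) had a peak, with 5.84 and 4.65 expected from length. In the BHBNa list 13 of 53 writers (24.5%, 14.9 to 37.6) and 9 of 37 erasers (24.3%, 13.4 to 40.1) did, with 11.9 and 8.55 expected. The intervals of writers and erasers overlapped over most of their width in each list. Requiring at least 3 fragments left 5 writers and 2 erasers for BHBNa (6.23 and 4.83 expected). Among the finer roles, demethylases had 2 and 7 of 19 (2.7 and 5.14 expected) and deacylases 1 and 2 of 18 (1.94 and 3.41 expected). Lysine methyltransferases had 4 and 10 of 35 (3.87 and 7.82 expected). With at least 3 fragments, the BHBNa counts of lysine methyltransferases and demethylases passed from above the expected number to below it, at 2 (4.17 expected) and 1 (2.81 expected).

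**Figure D2:**
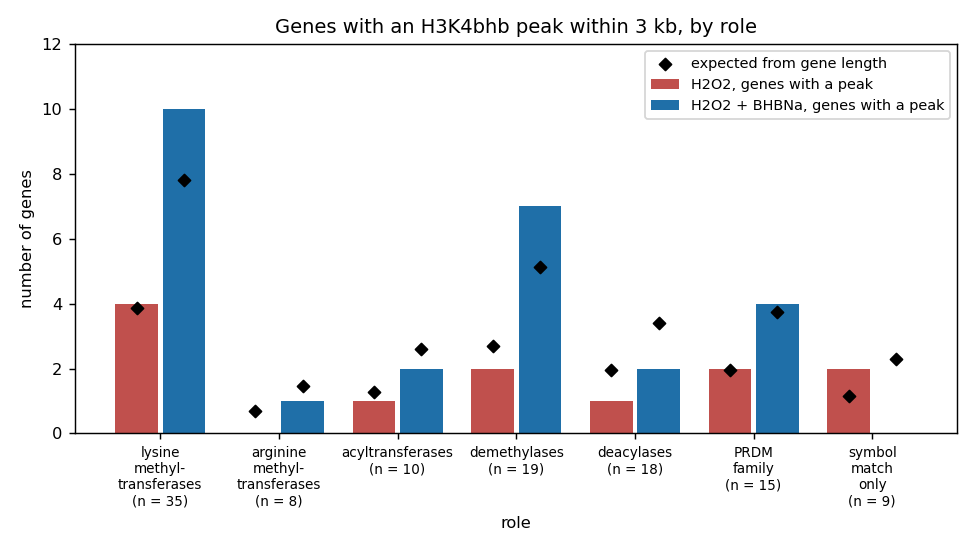
Number of genes with a peak summit within 3 kb (bars, vertical axis) for each role (horizontal axis, n genes), 1 colour per list; diamonds give the number expected from other genes of the same length. Bars and diamonds differ by at most 2.29 genes, the largest gap being the 0 genes of the BHBNa list in the class that matched by symbol only.

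Peaks of members were mostly weak. A q (the p adjusted by the peak caller for the positions tested) of at most 0.05 was reached in 1 (H2O2) and 4 (BHBNa) members, where 0.786% and 3.33% of all genes reached it and 1.27 and 5.2 members were expected from length. By peaks this was 1 of 16 (6.25%, 1.11 to 28.3) and 4 of 36 (11.1%, 4.41 to 25.3), beside 6.57% and 14.5% of the peaks of other protein-coding genes. Folds of member peaks ran from 2.96 to 4.89 (median 3.23) for H2O2 and from 2.55 to 5.11 (median 2.72) for BHBNa. In the latter list 23 of 36 rested on 2 fragments (63.9%, against 53.1% in other genes). The members past the limit on q were HDAC9 in both lists and KDM5C, SMYD3 and PRDM16 in the BHBNa list.

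**Figure D3:**
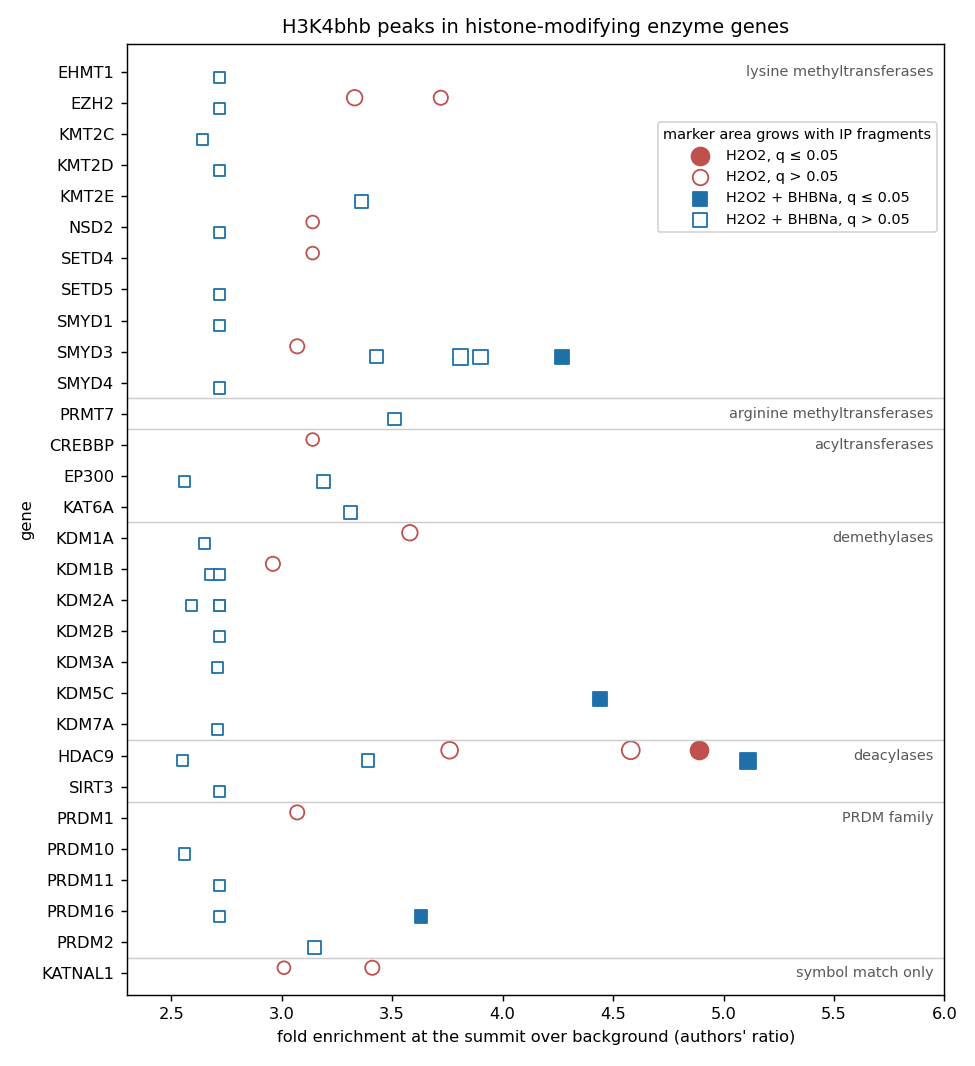
Fold enrichment at the summit (horizontal axis, the authors' ratio) of the peaks in or within 3 kb of the members reported (vertical axis, grouped by role), circles for the H2O2 list and squares for the BHBNa list, filled where q is at most 0.05 and larger with more IP fragments. Most squares stand at or near 2.72, the fold of 2 fragments over the genome-wide background, and 2 of the 3 KDM2A squares coincide there; HDAC9 holds the highest fold of each list.

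HDAC9 encodes a class IIa histone deacetylase, and it was the longest member (chromosome 7, 18086825 to 19002416). It held 3 peaks in each list. Under H2O2 alone their folds were 3.76, 4.58 and 4.89, from 6, 7 and 7 fragments, with q values of 0.245, 0.0543 and 0.0298. With BHBNa they were 3.39, 2.55 and 5.11, from 3, 2 and 5 fragments, with q values of 0.135, 0.326 and 0.0015. The highest peak of each list lay at 18389898 to 18390202 (H2O2) and 18257401 to 18257785 (BHBNa), 132 kb apart by their summits. All 6 summits fell between 9.84% and 33.1% of the gene's length, counted from its upstream edge, and all lay before the start that RefSeq's promoter table gives for the gene, 409 kb inside that edge. The density was 3.26 peaks per Mb in both lists. The local control background at the HDAC9 peaks was 2.32 to 3.14 times the genome-wide level for H2O2 and 1.71 to 1.77 times for BHBNa. SIRT3, a mitochondrial deacylase, had 1 BHBNa peak, 4.38 kb after its start, from 2 fragments (fold 2.72, q 0.326). The other 16 deacylase genes had 0 peaks in both lists.

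KDM5C, an X-linked demethylase of lysine 4 of H3, had the strongest demethylase peak. It lay on chromosome X at 53190832 to 53191312 in the BHBNa list, 34.2 kb after the gene's start, at 4.44-fold (q 0.00529), 4 fragments over a background of 0.125. The nearest summit of the H2O2 list was 348 kb away. KDM1A and KDM1B encode the flavin-dependent demethylases LSD1 and LSD2, and both genes had peaks in both lists. The KDM1A folds were 3.58 for H2O2 (5 fragments, q 0.33) and 2.65 for BHBNa (2 fragments, q 0.326). The latter summit lay 0.968 kb before the finish of KDM1A, in sequence also within 3 kb of LUZP1. Those of KDM1B were 2.96 for H2O2 (4 fragments, q 0.532), and 2.68 and 2.72 for BHBNa, from 2 fragments each. KDM2A, a demethylase that binds CpG islands, had 3 peaks, 2 of them around its finish, and its paralog KDM2B had 1, all in the BHBNa list and from 2 fragments each. KDM3A and KDM7A had 1 peak each there, at folds of 2.71, also from 2 fragments. Thus 9 of the 10 BHBNa peaks in demethylase genes rested on 2 fragments, the exception being KDM5C.

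Among the lysine methyltransferases, SMYD3 had the most peaks (chromosome 1, 245749347 to 246507279). It held 1 peak in the H2O2 list, with a fold of 3.07 from 4 fragments (q 0.494), and 4 in the other, whose folds were 4.27, 3.43, 3.9 and 3.81 (4, 3, 4 and 5 fragments). The strongest of them, at 245847951 to 245848249, had a q of 0.0168, and its neighbour at 245850508 to 245850925 a q of 0.113. These neighbours were the BHBNa peaks nearest to the H2O2 summit, at 36.6 and 39.2 kb. At the SMYD3 peak of 5 fragments the control background was 5.63 times the genome-wide level, the highest ratio at any member peak. SMYD1, known from heart and skeletal muscle, and SMYD4 had 1 peak each in the BHBNa list at a fold of 2.72. Both rested on 2 fragments (q 0.326). The SMYD4 summit lay outside the gene, 2.73 kb past its finish, in sequence also within 3 kb of SERPINF1.

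EZH2, the catalytic subunit of Polycomb repressive complex 2, had 2 peaks in the H2O2 list. Their folds were 3.72 (4 fragments, q 0.245) and 3.33 (5 fragments, q 0.494). Its 1 BHBNa peak lay 1.74 kb past the finish of the gene, with a fold of 2.72 from 2 fragments. NSD2, a methyltransferase tied to transcribed gene bodies, had 1 peak in each list at opposite ends of the gene. The H2O2 peak was at chromosome 4, 1872324 to 1872582 (fold 3.14, 3 fragments, q 0.494), and the BHBNa peak at 1981735 to 1981991 (fold 2.72, 2 fragments, q 0.326), in sequence also within 3 kb of NELFA. SETD4 had a fold of 3.14 in the H2O2 list alone. With peaks in the BHBNa list only, KMT2C, KMT2D, SETD5 and EHMT1 held 1 each at folds of 2.64 to 2.72 from 2 fragments. KMT2E had a fold of 3.36 there from 3 fragments (q 0.15).

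Acyltransferases had 1 and 2 of 10 genes with a peak (1.29 and 2.6 expected), and 0 in both lists. For both lists, multiplying their shares in each length class gave 0.544, and the share of other genes with both gave 0.623. CREBBP, the paralog of EP300, had a peak in the H2O2 list alone, at chromosome 16, 3823701 to 3823981 (fold 3.14, 3 fragments, q 0.494). EP300 had 2 peaks in the BHBNa list alone, at chromosome 22, 41101998 to 41102300 (fold 3.19, 3 fragments, q 0.311) and 41114382 to 41114675 (fold 2.56, 2 fragments, q 0.326). They lay 9.64 and 22.1 kb after its start. KAT6A, a MYST-family acetyltransferase, was also in that list alone, at 3.31-fold from 3 fragments (q 0.19), 1.37 kb inside an end of the gene. The other 7 acyltransferase genes, KAT2A, KAT2B, KAT5, KAT6B, KAT7, KAT8 and KAT14, had 0 peaks. The only arginine methyltransferase gene with a peak was PRMT7, at a fold of 3.51 in the BHBNa list (3 fragments, q 0.0784). That made 0 and 1 of 8, where 0.686 and 1.45 were expected from length.

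PRDM genes encode zinc finger proteins with a domain related to that of methyltransferases, and only some are known to methylate histones. They had 2 and 4 of 15 members with a peak (1.97 and 3.75 expected). PRDM16, a regulator of brown fat, had 2 peaks in the BHBNa list. The stronger lay at chromosome 1, 3306388 to 3306700, at 3.63-fold (q 0.0484, 3 fragments), just inside the limit on q. PRDM2 had a fold of 3.15 from 3 fragments, and PRDM10 and PRDM11 had folds of 2.56 and 2.72 from 2 fragments. For H2O2, PRDM1, the repressor BLIMP1, had a fold of 3.07 (q 0.494) 0.835 kb before its finish. Of the genes that matched by letters alone, KATNAL1, of the microtubule-severing katanins, had 2 peaks in the H2O2 list, and 0 of 9 had one in the BHBNa list, where 2.29 were expected. Without these 9 genes the counts were 10 and 26 of 105 (9.52% and 24.8%), with 12.5 and 24.2 expected from length.

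Members with peaks in both lists were NSD2, EZH2, SMYD3, KDM1A, KDM1B and HDAC9, 6 in all, where 4.52% of all genes had peaks in both. Multiplying the shares of the 2 lists in each length class gave 6.39 members. That product treats the lists as independent, and over all genes it gave 798 where 902 had both. The share of other genes with peaks in both gave 7.25 members. Only SMYD3 and HDAC9, 2 members, remained with at least 3 fragments, where the product gave 3.93 and the share in both 4.81. Of the 16 H2O2 peaks in members, 0 overlapped a BHBNa peak, and few did anywhere: 22 of 2421 H2O2 peaks in other protein-coding genes (0.909%) and 85 of all 6251 (1.36%). The 0 of 16 is therefore nothing particular to these genes. The nearest summits of the 2 lists were 11.6 kb apart, at EZH2. In KDM1A and KDM1B they were 17.4 and 41.5 kb apart and in NSD2 109 kb.

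**Figure D4:**
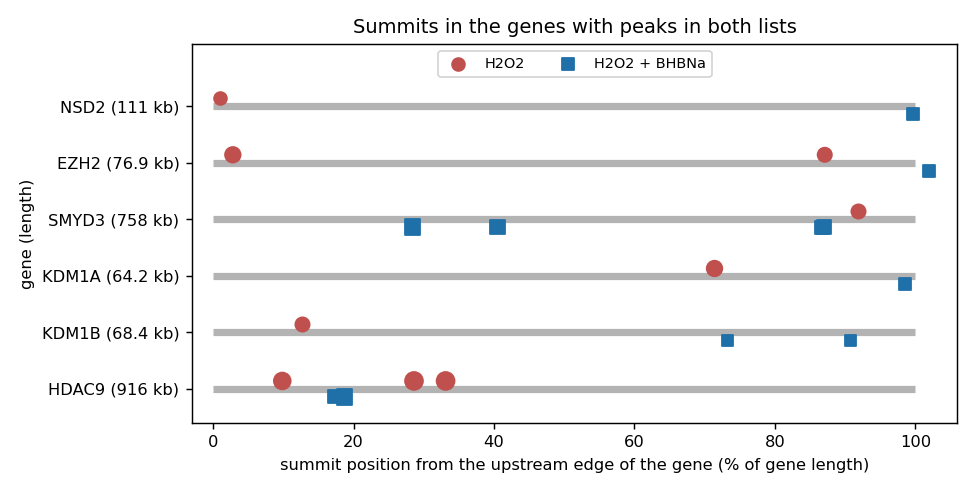
Position of every summit in the 6 genes with peaks in both lists, as % of gene length from the upstream edge (horizontal axis; values over 100 lie past the finish), with 1 gene per row, circles for the H2O2 list and squares for the BHBNa list, larger with more IP fragments. No circle and square share a position: in NSD2 they stand at 0.936% and 99.7%, and in HDAC9 all lie between 9.84% and 33.1%.

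Summits within 3 kb of a start were found in 2 (H2O2) and 0 (BHBNa) of the 101 members with a listed start. In the H2O2 list NSD2 and EZH2 had a summit within 3 kb of the start given by RefSeq, at 1.04 and 2.15 kb after it, where 0.569% of all genes with a listed start had one. For BHBNa, 0 members did, where 1.37% of all genes had one, and the nearest was the SIRT3 summit at 4.38 kb. The median distance from summit to start was 61.9 and 66.4 kb (H2O2 and BHBNa). Within 3 kb of a finish there were 2 and 7 summits, in 2 and 6 of the 101 members with a listed start, where 0.613% and 1.64% of all such genes had one. They were those of KATNAL1 and PRDM1 in the H2O2 list and of KDM1A, KDM2A, KDM7A, EZH2, NSD2 and SMYD4 in the BHBNa list. All 7 of the latter rested on 2 fragments. Just inside the 3 kb limit lay the SMYD4 summit, 2.73 kb outside the gene with a fold of 2.72, and the nearest that were not counted lay at SETMAR in the same list (5.67 kb, fold 3.38) and, in the H2O2 list, at HDAC9 (3.21 kb, fold 2.91, 4 fragments) and KATNBL1 (4.98 kb, q 0.494).

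The promoters of NSD2 and EZH2, the members with a summit near the start, are shown with those of SMYD3 and KDM5C, whose strongest peaks lay far from it. Each is the 250 bases before the start, from RefSeq (GRCh38.p14), 5′ to 3′ on the strand of the gene, with the dinucleotide CG in capitals. They lie at chr4:1871143-1871392 (plus strand), chr7:148884292-148884541, chr1:246507280-246507529 and chrX:53225208-53225457 (minus strand).
NSD2: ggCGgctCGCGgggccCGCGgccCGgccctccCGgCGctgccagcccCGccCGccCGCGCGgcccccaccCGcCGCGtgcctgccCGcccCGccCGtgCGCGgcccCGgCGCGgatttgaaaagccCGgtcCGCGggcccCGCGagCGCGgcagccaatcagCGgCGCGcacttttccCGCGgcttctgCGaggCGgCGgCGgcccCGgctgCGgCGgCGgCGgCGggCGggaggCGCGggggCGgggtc
EZH2: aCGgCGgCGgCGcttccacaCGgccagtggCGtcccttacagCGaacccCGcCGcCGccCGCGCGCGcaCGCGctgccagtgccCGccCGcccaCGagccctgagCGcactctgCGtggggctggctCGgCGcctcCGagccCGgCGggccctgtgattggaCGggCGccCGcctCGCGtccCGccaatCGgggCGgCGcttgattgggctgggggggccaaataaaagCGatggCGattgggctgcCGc
SMYD3: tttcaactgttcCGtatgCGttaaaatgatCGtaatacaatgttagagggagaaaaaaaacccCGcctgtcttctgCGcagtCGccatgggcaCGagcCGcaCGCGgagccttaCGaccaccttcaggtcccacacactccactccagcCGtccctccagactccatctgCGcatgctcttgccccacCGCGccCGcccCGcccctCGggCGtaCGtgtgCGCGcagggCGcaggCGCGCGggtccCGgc
KDM5C: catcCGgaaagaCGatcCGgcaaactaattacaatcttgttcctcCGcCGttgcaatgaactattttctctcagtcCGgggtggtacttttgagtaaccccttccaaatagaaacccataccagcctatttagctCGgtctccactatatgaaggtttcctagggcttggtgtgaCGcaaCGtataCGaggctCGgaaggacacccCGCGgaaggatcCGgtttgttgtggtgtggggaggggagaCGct
CG occurred 50, 38, 27 and 15 times in these windows. Among these chosen promoters NSD2 and EZH2 had the most CG, but their peaks lay after these windows and not in them. Whether CG number goes with summits near starts was not tested.

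Promoters of members were rich in CG as a class. RefSeq's table held starts for 101 of the 114 members and 15813 of the 19974 genes. The median number of CG in the 250 bases was 23 in members (interquartile range 16 to 30) and 17 in all genes (6 to 26). It was 25 in writers, 22 in erasers and 19 in the PRDM family. At least 10 were found in 90.1% of member promoters, against 68.6% of all promoters. Members with a peak in either list had a median of 26 and members without one 22, yet no summit of a member with a listed start lay in its window.

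Enzymes taken here to act on lysine 4 of H3 were counted as a list of 17, a choice made with some of their peaks known. Peaks were found in 3 for H2O2 (SMYD3, KDM1A and KDM1B) and 8 for BHBNa (these and KMT2C, KMT2D, SMYD1, KDM2B and KDM5C), with 2.5 and 4.57 expected from length. With at least 3 fragments the BHBNa count fell to 2, SMYD3 and KDM5C, where 2.62 were expected. KMT2A, KMT2B, SETD1A, SETD1B, SETD7, SMYD2, PRDM9, KDM5A and KDM5B had 0 peaks in both lists. A set of 6 held the enzymes named above for writing or removing beta-hydroxybutyryl groups, with CREBBP, the paralog of EP300, added. From length, 0.583 (H2O2) and 1.23 (BHBNa) of them were expected to have a peak. CREBBP had a peak for H2O2, and EP300 and SIRT3 had peaks for BHBNa. Of these, EP300 was the 1 left for BHBNa with at least 3 fragments (0.647 expected). HDAC1, HDAC2 and HDAC3 had 0 peaks in both.

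The partners of these enzymes were taken as a list of 97 genes for complex subunits, readers of histone marks and further enzymes that the symbols miss. For H2O2, 8 had a peak (8.25%, 4.24 to 15.4), where 12.4 were expected from length. For BHBNa, 30 did (30.9%, 22.6 to 40.7), where 23 were expected. With at least 3 fragments these counts were 8 and 18 (12.4 and 12.8 expected). Under that limit partner genes were fewer than expected for H2O2 and more than expected for BHBNa. Members were fewer than expected in both lists. Because 3 fragments stand over unlike backgrounds in the 2 peak lists, the counts were not compared between treatments. Whether the lists of genes differ was not tested. PHF19, a Polycomb accessory subunit, had a fold of 7.26 (q 6.89e-08) and MTA3, a NuRD subunit, a fold of 7.09 (q 3.62e-07), both from 7 fragments and in the BHBNa list alone. Both folds exceeded that of every member peak. YEATS2, a reader of acylated lysines, had folds of 4.76 (q 0.0351) and 3.61 (q 0.0484) in the H2O2 and BHBNa lists.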

How the data were processed

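Reads were processed on GRCh38 with tools that included fastp (0.20.1), Bowtie2 (2.4.2) and MACS2 (2.2.7.1), per the submitters' processing notes, which are known here without roles or settings. The authors deposited, for each peak, a score (10 times the −log10 p, cut to a whole number), a ratio (fold enrichment at the summit) and the −log10 of p and q. The BED and narrowPeak files of a treatment held the same peaks in 100% of rows, with starts 1 bp apart, so each treatment entered once. Fragments (k) and background (b) at a summit were recovered from fold = (k + 1)/(b + 1) and a Poisson tail above k for p. The match was within 0.001 times the −log10 p for 100% of peaks. Summits were the start plus the deposited offset. Gene spans, names and starts came from RefSeq. Expected counts are sums of shares in 20 length classes of other genes, with no resampling and no test, since each group had 1 library. Intervals are 95% Wilson. Named genes were members with peaks in both lists, those with a q of at most 0.05, those with a summit within 3 kb of an end, and the enzymes of lysine 4 and of beta-hydroxybutyryl groups. Further members were added after their values were seen, and a few members are counted but not reported here singly. Members and lists were chosen with earlier results of these data known. The assignment, the expectation and the recovery were tested on simulated data. Python 3.11.15, numpy 2.4.6, pandas 2.3.3, scipy 1.17.1 and matplotlib 3.10.9 were used.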

Additional observations from a re-analysis of the deposited data

How the results depend on the processing

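No paired analysis was possible because no group had more than 1 library; for that reason no replicate could be left out. Of 61 alternative values, 40 stayed within 1.5 times the reported one, among them those for other windows (0 and 10 kb), any overlap, 50 length classes, and counts without the PRDM family or the symbol-only matches. The other 21 came from stricter limits, which remove peaks by construction. Counts are given for H2O2, then BHBNa. Limiting q to 0.05 left 1 and 4 members, 0 and 1 writers, 1 and 2 erasers, 1 and 4 member peaks, 0 and 2 enzymes of lysine 4, and 1 and 7 partner genes. From length, 1.27 and 5.2 members, 0.52 and 2.25 writers, and 0.457 and 1.78 erasers were expected. For enzymes of lysine 4 these numbers were 0.246 and 0.991, and for partner genes 1.21 and 4.87. Limiting q to 0.01 left 0 and 2 members, for which no expected number was calculated. With at least 3 fragments the H2O2 counts could not change, since no H2O2 peak had fewer. Their place among the 40 is therefore no check. The BHBNa list then held 9 members, 5 writers, 2 erasers, 13 member peaks, 2 enzymes of lysine 4 and 18 partner genes, with 2 members in both lists. Limits on the lists of lysine 4 enzymes and partners were added after seeing the data. IP depth limits every count: a gene with no peak may carry the mark below detection.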

Other observations

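Members on chromosome 7 stood out, a pattern noticed after the values were seen and not tested. All 5 of them (HDAC9, KMT2E, KDM7A, EZH2 and KMT2C) had a peak in the BHBNa list, 7 peaks in all, where 2.37 members were expected from length. In the H2O2 list 2 of the 5 did, with 5 peaks, where 1.55 members were expected. The chromosome as a whole had 3.91 peaks per Mb in the BHBNa list, against 3.8 over all chromosomes, and 2.07 against 2.07 in the H2O2 list. KDM7A, EZH2 and KMT2C rested on 2 fragments each. On chromosome 19, by contrast, 0 of 7 members had a peak in either list, among them DOT1L, KMT2B, SIRT2 and SIRT6, with 0.49 and 1.02 expected. Only 1.03% and 5.31% of all genes there had one.

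Genes of germ cells, muscle, nerve, blood, vessels and liver, which a kidney epithelial line is not known for, had peaks in 7 and 11 of 28 cases, with 6.14 and 9.89 expected from length. DMD, longer than any member, held 11 and 20 peaks, and CNTNAP2, likewise longer, held 11 and 10. ACTN2, a muscle gene, had a fold of 6.83 in the BHBNa list (q 2.95e-06, 7 fragments), above every member.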
